A study of Mus musculus with 34 samples.

Results

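The 10 genes described here mark the cells that wrap and surround the blood vessels of the brain: pericytes, vascular smooth muscle cells and the fibroblasts of the meninges and large vessels. They were chosen by name from the deposited count table: 3 pericyte genes (Pdgfrb, Vtn and Rgs5), 2 smooth muscle genes (Acta2 and Tagln) and 5 fibroblast genes (Col1a1, Col1a2, Col3a1, Dcn and Igf2), out of 55385 genes listed. All 10 passed the filter on low counts, which left 17632 genes to test. Their level was read in poly-A RNA from the brain cortex of 34 mice aged 6 months, 16 females and 18 males, with 1 library per mouse.

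Mice were of 4 genotypes. 5xFAD mice express mutant human amyloid precursor protein and presenilin transgenes from the neuronal Thy1 promoter and form amyloid plaques. In Dp16 mice a stretch of chromosome 16, the counterpart of much of human chromosome 21, is duplicated, which makes them a model of Down syndrome. 5xFAD-Dp16 mice carry both lesions, and wild-type mice (WT, C57BL/6J) carry neither. Each genotype was split between tofacitinib, a Janus kinase inhibitor given by daily gavage at 15 mg/kg, and a sham gavage of vehicle, 0.5% methylcellulose, both for 1 month. Groups given tofacitinib held 4 5xFAD-Dp16, 5 5xFAD, 5 Dp16 and 5 WT mice. Sham groups held 3 5xFAD-Dp16, 4 5xFAD, 3 Dp16 and 5 WT mice. The series description gives 6 tofacitinib 5xFAD and 4 sham 5xFAD-Dp16 mice, of which 1 in each group was not analysed here. Each sample is labelled as a mouse of its own, so p-values measure the spread between these mice.

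Pericytes sit in the wall of brain capillaries and help to keep the blood-brain barrier closed. They are recruited when platelet-derived growth factor from endothelial cells binds the receptor that Pdgfrb encodes, and in the brain they secrete vitronectin, the product of Vtn, an extracellular protein that binds integrins. Rgs5 encodes a regulator that shortens G protein signalling and is among the most specific pericyte transcripts. Smooth muscle cells of arterioles carry contractile actin, encoded by Acta2, and transgelin, an actin-binding protein encoded by Tagln. Fibroblasts lie in the meninges and along larger vessels, where they make fibrillar collagen: Col1a1 and Col1a2 encode the chains of type I collagen and Col3a1 that of type III, while Dcn encodes decorin, a small proteoglycan that binds collagen fibrils. Igf2, an imprinted growth factor gene, is made in the adult brain mainly by meninges and choroid plexus. In whole cortex, fewer cells of a type and less RNA per cell cannot be told apart.

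Promoter sequences are shown for 4 members as examples of core and smooth muscle elements. The RefSeq promoter table for GRCm38.p6 matched 6 of the 10 members (Rgs5, Vtn, Acta2, Col1a2, Col3a1 and Igf2). Each window ran from 250 bases before to 50 bases after the start, and positions count from the start, with -1 the base before it. Both strands were searched for CCAAT, a common upstream element, for TATAAA, the usual TATA box, for its variant TATATA, and for the CArG box, which serum response factor binds in smooth muscle genes. Among 32851 promoter windows of the same length, CCAAT was present in 37.4%, TATAAA in 13.6%, TATATA in 5.67%, a CArG box in 1.63% and a CArG box with at most 1 mismatch in its core in 9.98%. Capitals mark the matches. Rgs5 is shown for a CCAAT match on the opposite strand, which reads ATTGG, at -67 and TATATA at -30, on the forward strand at chr1:169655251-169655500. Col3a1 is shown for TATAAA at -117, forward strand, chr1:45311288-45311537. Col1a2 is shown for a CArG box with 1 mismatch at -228, in the stretch outside annotated exons, forward strand, chr6:4505370-4505492. Acta2 is shown for a pair of CArG boxes with 1 mismatch each, at -84 and -34, on the reverse strand at chr19:34255438-34255467 and chr19:34255388-34255417, both inside an exon that GENCODE M21 annotates further upstream.
Rgs5: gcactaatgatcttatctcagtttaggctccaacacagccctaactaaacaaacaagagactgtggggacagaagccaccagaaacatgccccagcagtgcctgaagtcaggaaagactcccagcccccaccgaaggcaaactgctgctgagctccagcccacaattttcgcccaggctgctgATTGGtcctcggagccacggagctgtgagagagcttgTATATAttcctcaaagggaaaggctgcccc
Col3a1: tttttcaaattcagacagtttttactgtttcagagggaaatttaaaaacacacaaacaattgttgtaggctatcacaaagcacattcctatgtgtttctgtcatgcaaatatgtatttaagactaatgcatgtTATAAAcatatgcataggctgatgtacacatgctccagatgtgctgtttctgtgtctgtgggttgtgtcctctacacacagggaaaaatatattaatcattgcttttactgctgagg
Col1a2: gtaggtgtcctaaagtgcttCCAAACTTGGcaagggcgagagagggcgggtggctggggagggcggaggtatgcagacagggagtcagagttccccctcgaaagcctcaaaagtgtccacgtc
Acta2, distal element: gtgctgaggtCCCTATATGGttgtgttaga
Acta2, proximal element: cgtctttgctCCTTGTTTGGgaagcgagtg
A full CArG box was found for 1 member, in 1 of the Igf2 windows, at -155. Vtn, also not printed, had overlapping TATAAA matches on both strands at -137 and -135. Outside the printed stretches, the Acta2 window also held TATATA at 9, after the start, and the Col1a2 window CCAAT at -109 and 1. These are matches of letters and not measured sites.

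Per kilobase of transcript, the pericyte genes Vtn and Rgs5 stood far above the rest. Vtn averaged 45.2 ± 4.82 RPKM (reads scaled to gene length and library total) and Rgs5 43.0 ± 5.63 RPKM (SD, n = 34 libraries). Vtn was above Rgs5 in 23 of 34 libraries, so these neighbours did not separate beyond their spread. The smooth muscle genes came next, Acta2 with 8.57 ± 2.32 RPKM and Tagln with 7.12 ± 2.58 RPKM, and Acta2 was above Tagln in 30 of 34 libraries. Dcn averaged 7.11 ± 3.86 RPKM and lay below Tagln in 18 of 34 libraries, so that pair did not separate either. Pdgfrb averaged 4.45 ± 0.738 RPKM, the lowest of the pericyte genes and just above the middle of all tested genes, at percentile 51.2. Among the fibrillar collagens, Col1a2 had 1.74 ± 0.645 RPKM, Col1a1 1.16 ± 0.594 RPKM and Col3a1 0.438 ± 0.215 RPKM. Igf2 lay between the last of these with 0.811 ± 0.330 RPKM. The Col1a2 level was above the Col1a1 level in 31 of 34 libraries, with a median ratio of 1.54 and a range of 0.868 to 2.48.

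The pericyte genes varied least between mice and the fibroblast genes most. The biological coefficient of variation, which edgeR estimates as the spread between mice beyond counting error, was 9.84% for Vtn, 12.8% for Rgs5 and 15.2% for Pdgfrb, all below the 17.3% median of tested genes. It was 20.3% for Acta2 and 28.8% for Tagln. The fibroblast genes spread most, with 30.0% for Col1a1, 31.6% for Col1a2, 34.9% for Igf2, 38.0% for Dcn and 39.6% for Col3a1. Col3a1 rested on the fewest reads, 19 to 152 counts per library, and Rgs5 on the most, 2798 to 4906. Standard errors in the sham comparisons were accordingly 0.09 to 0.18 log2 units for pericyte genes and 0.30 to 0.49 for fibroblast genes.

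**Figure D1:**
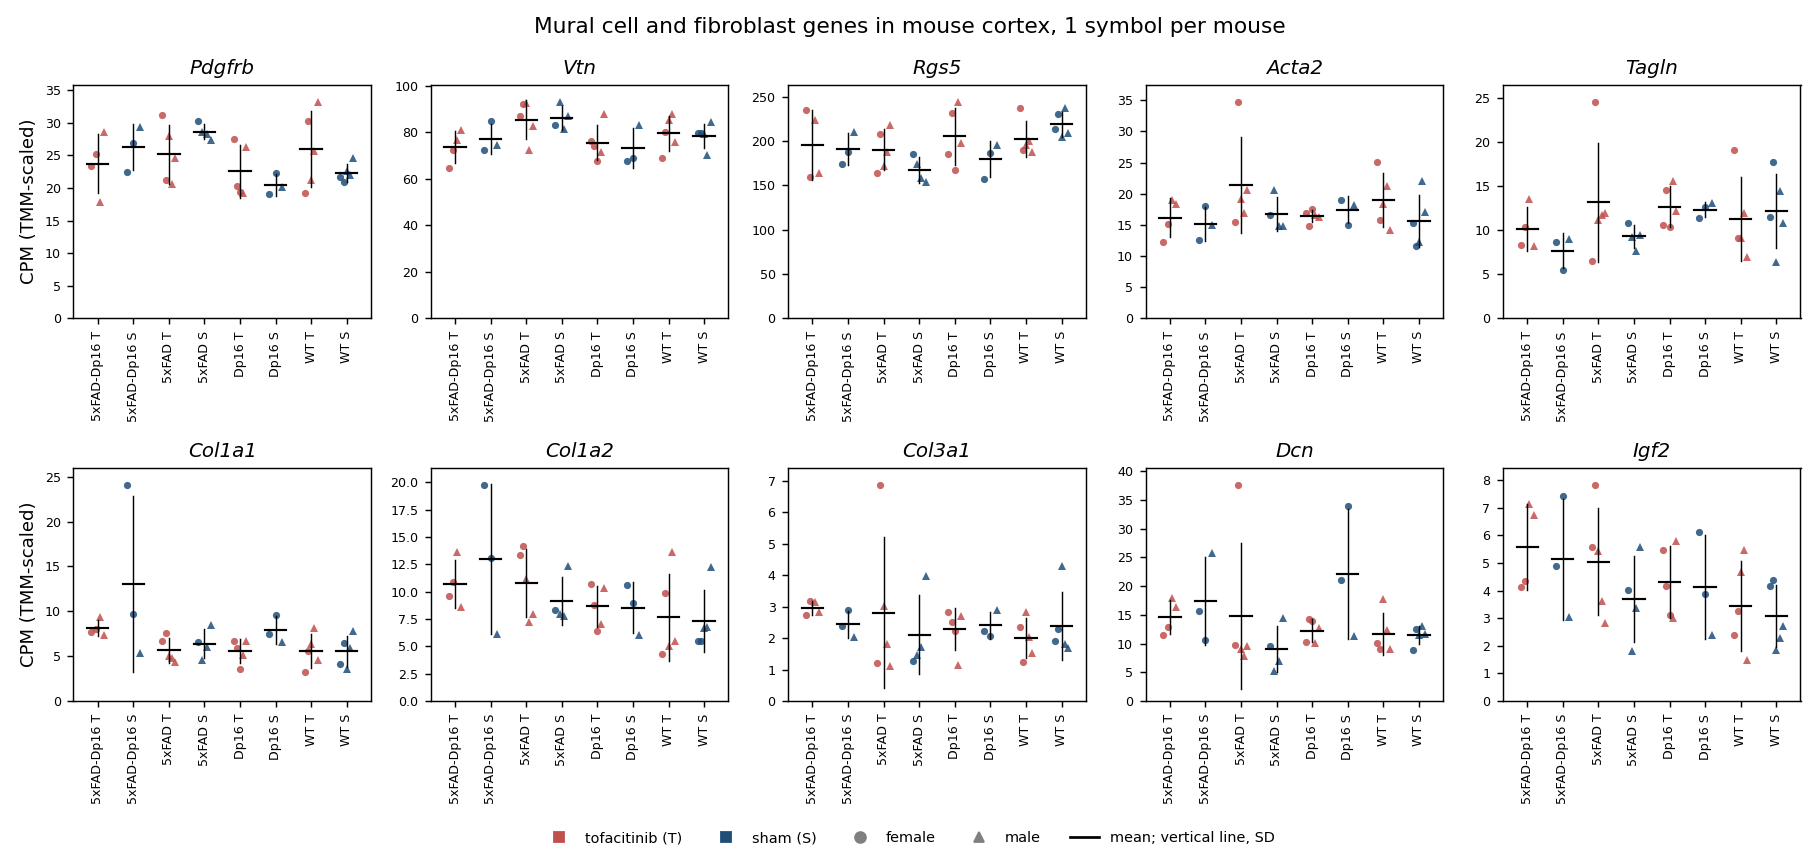
Level of each of the 10 genes in every mouse, in CPM (counts scaled to the library total with TMM factors), by group (T, tofacitinib; S, sham). Symbols are mice, horizontal bars group means and vertical lines SDs. Rgs5 in sham mice lay at 154 to 185 CPM in 5xFAD against 204 to 237 CPM in WT. Single mice stand out, such as 37.6 CPM of Dcn in a 5xFAD tofacitinib mouse and 24.1 CPM of Col1a1 in a 5xFAD-Dp16 sham mouse.

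Library totals were 16029841 to 21388650 counts. The libraries of the sham WT mouse 2 and the tofacitinib 5xFAD mouse 2 stood apart in a principal component analysis of all tested genes. Neuronal markers were abundant, with Snap25 at a mean of 1648 RPKM and Slc17a7, a vesicular glutamate transporter gene, at 447 RPKM. These levels were not compared with other brain regions. The lowest sum of 5 neuronal genes, 3544 CPM, was in a tofacitinib 5xFAD library, beside a median of 6823 CPM over 34 libraries. The highest sum of 5 oligodendrocyte genes, 13341 CPM, was in the same group, beside a median of 7160 CPM. Choroid plexus markers varied between mice of the same group: the 9 genes of that list summed to 1534 CPM in the tofacitinib 5xFAD mouse 2 and 993 CPM in the sham Dp16 mouse 1, and to 5.62 to 522 CPM in the other 32 libraries. Ttr, the most abundant of them, ranged from 0.894 to 1441 CPM, and 6 of the 9 (Aqp1, Kcnj13, Otx2, Slc4a5, Prlr and Kcne2) were at 0 in 1 to 8 libraries. The part of choroid plexus, neuronal and oligodendrocyte content in the results below was not tested. None of the 10 genes lies on chromosome 16. Of the exonic bases of Tagln in GENCODE M21, 62.4% overlap Gm48529 on the opposite strand, which had 1 to 30 counts per library. Of those of Igf2, 62.8% overlap Gm49394 on the same strand, with 0 to 2 counts. These shares are of 1988 bases for Tagln and 5723 for Igf2, whereas their RPKM lengths are 1595 and 5249 bases. The shares may thus differ in the gene models behind the counts. The labels describe strand-specific libraries but not the strand setting of the counting, so Tagln counts may hold a few antisense reads or miss reads from the shared bases. How reads in the bases shared by Igf2 and Gm49394 were assigned was not tested, and Igf2 counts and RPKM may miss some of them.

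In sham mice, 5xFAD cortex had less Rgs5 and more Pdgfrb RNA than WT cortex, at 0.765 and 1.28 times the WT level, and neither gene passed the test. Rgs5 read 185, 174, 158 and 154 CPM in the 4 sham 5xFAD mice, against 213, 231, 204, 237 and 209 CPM in the 5 sham WT mice. Every 5xFAD value lay below every WT value. The log2 difference was -0.39 (SE 0.12, 95% interval -0.63 to -0.14), with an adjusted p of 0.068 in edgeR's quasi-likelihood test. Pdgfrb read 30.2, 28.7, 28.3 and 27.4 CPM in sham 5xFAD mice, against 21.7, 20.9, 22.6, 22.0 and 24.6 CPM in sham WT mice. Again the groups did not overlap, in the opposite direction, with a log2 difference of 0.35 (SE 0.15, edgeR adjusted p = 0.13). Complete separation of this kind was common in this comparison: it held for 2 of the 10 members and for 10.8% of all tested genes. The third pericyte gene, Vtn, averaged 85.9 ± 5.15 CPM in sham 5xFAD mice and 78.5 ± 5.15 CPM in sham WT mice (SD, n = 4 and 5), and the groups overlapped.

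No member was called at an adjusted p under 0.05 in the sham 5xFAD against WT comparison, where edgeR called 0.00567% of tested genes, a single gene. At an unadjusted p under 0.05 it was 2 of 10 members against 24.7% of all genes. DESeq2 gave Rgs5 a log2 difference of -0.40 with an adjusted p of 0.026, and limma-voom with sample weights gave -0.39 with 0.014, but these tools called 12% and 15.9% of the genes they tested. In edgeR, Rgs5 also passed without the sham WT mouse 3 (-0.41, adjusted p = 0.035), without the tofacitinib WT mouse 1 (-0.39, 0.033) or without the tofacitinib 5xFAD mouse 1 (-0.38, 0.049). Those fits called 11.4%, 9.26% and 4.96% of genes. The smooth muscle and fibroblast members had log2 differences between -0.36 for Tagln and 0.34 for Igf2, each with a 95% interval that included 0.

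The opposite signs of Rgs5 and Pdgfrb ran along a difference between libraries that touched many genes. The first principal component of all tested genes held 13.8% of the variance, and Pdgfrb had a Pearson r of 0.77 with it, Rgs5 of -0.62 and Tagln of -0.87 (n = 34 libraries, a description). The 4 sham 5xFAD libraries lay at scores of 16.4 to 30.5 and the 5 sham WT libraries at -47.1 to 22.4. A larger absolute r was found for 14.6% of tested genes beside Pdgfrb, 28.6% beside Rgs5, 6.06% beside Tagln and 94.0% beside Col1a1, whose r was 0.04. In the same comparison the log2 difference was larger for longer genes, with a Spearman rho of 0.40 across 17632 genes, which are not independent replicates. In the RPKM table Pdgfrb has a length of 5478 bases, Rgs5 4546 bases and Tagln 1595 bases. The part of this axis and of gene length in the Rgs5, Pdgfrb and Tagln values was not tested.

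**Figure D2:**
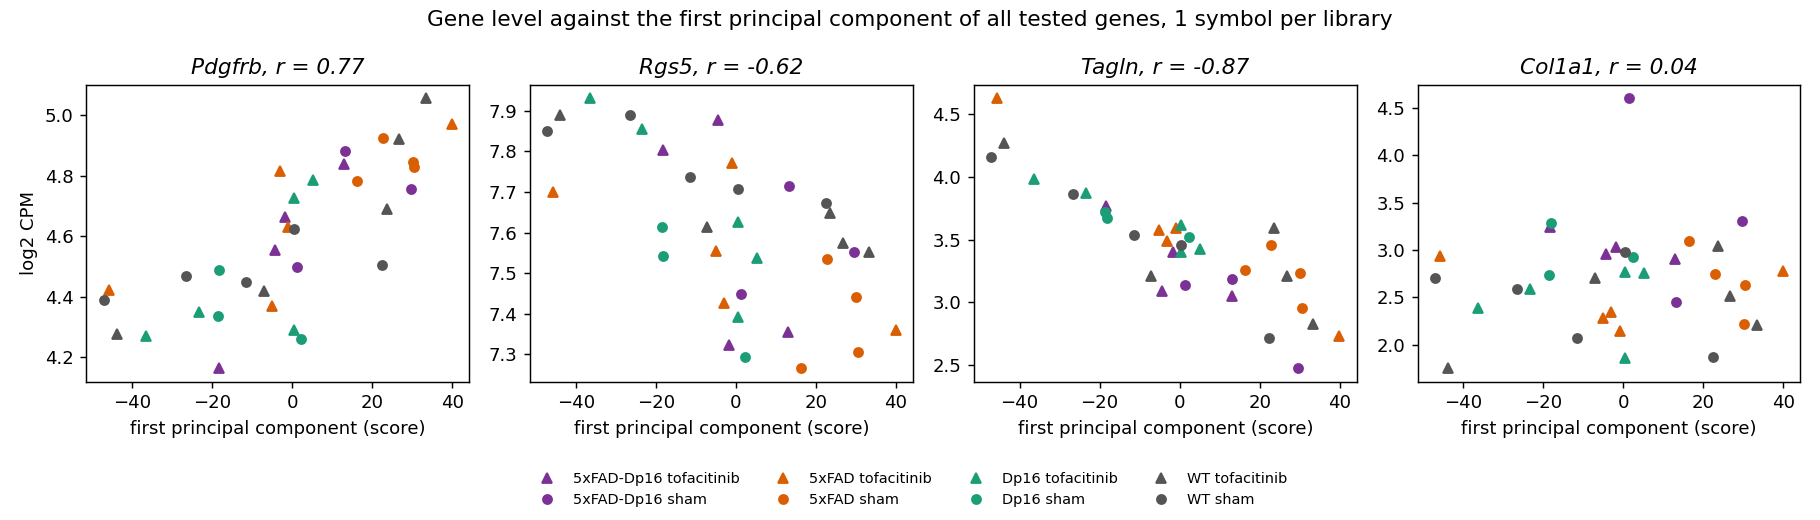
Level (log2 CPM) of Pdgfrb, Rgs5, Tagln and Col1a1 against the first principal component of all tested genes, 1 symbol per library, with triangles for tofacitinib and circles for sham. Pdgfrb increased along the component (r = 0.77), Rgs5 (r = -0.62) and Tagln (r = -0.87) decreased, and Col1a1 showed no trend (r = 0.04).

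In mice given tofacitinib, the 5xFAD and WT groups lay close together for both genes. Rgs5 averaged 190.1 ± 23.1 CPM in 5xFAD and 202 ± 20.1 CPM in WT mice on the drug (SD, n = 5 each), a log2 difference of -0.09 (SE 0.11). Pdgfrb averaged 25.2 ± 4.52 CPM in 5xFAD and 25.9 ± 5.84 CPM in WT mice on the drug, a log2 difference of -0.04 (SE 0.14). The genotype difference under tofacitinib minus that under sham was -0.40 for Pdgfrb (SE 0.20, adjusted p = 0.26 in edgeR) and 0.30 for Rgs5 (SE 0.16), so neither change in the genotype difference passed the test. edgeR called 0.0113% of tested genes between 5xFAD and WT mice on the drug and none of the 10 members, and 6.27% of genes and 0 of 10 members had an unadjusted p under 0.05.

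In sham 5xFAD-Dp16 mice the type I collagen genes had the highest group means of the series, carried by 1 mouse above all. Col1a1 read 24.1, 9.74 and 5.36 CPM in the 3 sham 5xFAD-Dp16 mice, against 4.10, 6.42, 3.54, 5.88 and 7.79 CPM in the 5 sham WT mice. The lowest 5xFAD-Dp16 mouse lay inside the WT range, and the highest was above every other library of the series. The log2 difference was 1.17 (SE 0.32, 95% interval 0.51 to 1.83) with an edgeR adjusted p of 0.12. Without the highest mouse it was 0.43 (SE 0.31, edgeR adjusted p = 0.52), and without the lowest, mouse 4, it was 1.60 (SE 0.32, edgeR adjusted p = 0.015). DESeq2 gave 1.165 with an adjusted p of 0.039. Col1a2, the partner chain, read 19.8, 13.04 and 6.11 CPM in the same mice, in the same order, against 5.46, 5.53, 6.64, 6.78 and 12.3 CPM in sham WT mice. Its log2 difference was 0.75 (SE 0.35, edgeR adjusted p = 0.32), 0.35 without mouse 1 and 1.145 without mouse 4.

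The other fibroblast genes ordered these 3 mice differently. Col3a1 averaged 2.43 ± 0.431 CPM in sham 5xFAD-Dp16 mice and 2.390 ± 1.083 CPM in sham WT mice (SD, n = 3 and 5). Dcn read 15.6, 10.7 and 25.8 CPM in 5xFAD-Dp16 mice, highest in the mouse with the least Col1a1, against 8.97, 12.5, 11.5, 13.1 and 11.6 CPM in WT mice. Igf2 averaged 5.13 ± 2.20 CPM in sham 5xFAD-Dp16 mice and 3.08 ± 1.13 CPM in sham WT mice, with overlap. Of the smooth muscle genes, Tagln read 8.71, 5.45 and 8.98 CPM in 5xFAD-Dp16 mice, against 11.5, 17.7, 6.46, 14.5 and 10.9 CPM in WT mice. Its log2 difference was -0.68 (SE 0.32, edgeR adjusted p = 0.33), while that of Acta2, the other contractile gene, was -0.04 (SE 0.22).

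No member was called in this comparison, in which edgeR called 0.363% of tested genes, 0.0510% as lower. It shares its 5 sham WT mice with the comparisons of 5xFAD and Dp16 mice. An unadjusted p under 0.05 was found for 3 of 10 members (Col1a1, Col1a2 and Tagln) and 14.6% of all genes. Against sham 5xFAD mice, which share the amyloid transgenes, sham 5xFAD-Dp16 mice had log2 differences of 0.95 for Col1a1 (SE 0.35) and 0.90 for Dcn (SE 0.43), with edgeR adjusted p of 0.98 and 1.00. Here edgeR called 0.102% of genes and no member, and an unadjusted p under 0.05 was found for 2 of 10 members and 3.74% of genes. For Dcn, limma-voom gave 1.26 with an adjusted p of 0.026, when it called 1.03% of genes, and edgeR gave 0.36 without the 5xFAD-Dp16 mouse with 25.8 CPM (adjusted p = 1.00). Without the mouse with 24.1 CPM, the Col1a1 difference to 5xFAD was 0.21 (SE 0.32).

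Against sham Dp16 mice, which share the duplication, 2 members separated completely from sham 5xFAD-Dp16 mice, 1 higher and 1 lower. With 3 mice on each side, 10.1% of tested genes separated as higher and 9.91% as lower. Pdgfrb read 22.5, 26.9 and 29.4 CPM in 5xFAD-Dp16 mice, against 19.1, 22.3 and 20.1 CPM in Dp16 mice. Tagln read 8.71, 5.45 and 8.98 CPM in 5xFAD-Dp16 mice, against 11.4, 12.7 and 13.1 CPM in Dp16 mice. The log2 differences were 0.36 (SE 0.18) and -0.67 (SE 0.35), both with an edgeR adjusted p of 0.70. edgeR called 0.00567% of tested genes here and no member, and at an unadjusted p under 0.05 it was 6.15% of genes and 0 of 10 members.

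In sham Dp16 mice Dcn was the member that stood out. Dcn read 21.0, 33.99 and 11.4 CPM in the 3 sham Dp16 mice, against 8.97, 12.5, 11.5, 13.1 and 11.6 CPM in the 5 sham WT mice. The values of 2 Dp16 mice, both females, lay above all WT mice and the third inside their range. The log2 difference was 0.89 (SE 0.41, edgeR adjusted p = 0.66), and 0.47 without the mouse with 33.99 CPM. The mouse with 33.99 CPM had a choroid plexus sum of 14.9 CPM, and the mouse with 21.0 CPM one of 993 CPM. The part of choroid plexus in these values was not tested. Rgs5 read 157, 186 and 196 CPM in sham Dp16 mice, all below the sham WT mice at 204 to 237 CPM, a separation seen for 4.59% of tested genes. Its log2 difference was -0.28 (SE 0.13, edgeR adjusted p = 0.66). edgeR called 0.210% of tested genes in this comparison and no member (0.0170% were called lower), and at an unadjusted p under 0.05 it was 2 of 10 members against 7.16% of genes.

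On tofacitinib, Dcn averaged 12.2 ± 1.98 CPM in Dp16 and 11.7 ± 3.66 CPM in WT mice (SD, n = 5 each), a log2 difference of 0.03 (SE 0.37). The difference between Dp16 and WT under tofacitinib minus that under sham was -0.86 for Dcn (SE 0.54) and did not pass. No member was called between Dp16 and WT mice on the drug, where edgeR called 0.255% of tested genes (0.0397% lower), nor between 5xFAD-Dp16 and WT mice on the drug, where it called 0.306% (0.0907% lower). At an unadjusted p under 0.05 it was 0 of 10 members in both, against 8.35% and 6.35% of genes. In the second of these, the fibroblast genes had log2 differences of 0.32 to 0.67 and the mural genes of -0.23 to -0.05.

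Averaged over both backgrounds and both treatments, carriers of the duplication had higher mean Dcn and Col1a1 levels than mice without it, and neither passed the test. This mean of 4 differences used all 34 libraries: 15 of 5xFAD-Dp16 or Dp16 mice and 19 of 5xFAD or WT mice. It was 0.46 for Dcn (SE 0.20, edgeR adjusted p = 0.30), 0.47 for Col1a1 (SE 0.16, edgeR adjusted p = 0.14) and -0.12 for Vtn (SE 0.05, edgeR adjusted p = 0.24). None of the 10 was called, against 2.12% of tested genes, and 3 of 10 had an unadjusted p under 0.05, against 13.6% of genes. Single libraries moved Dcn in both directions. Without the sham 5xFAD-Dp16 mouse 4, with 25.8 CPM, it was 0.30 (edgeR adjusted p = 0.64). Without the tofacitinib 5xFAD mouse 2, which stood apart and held 37.6 CPM of Dcn, the mean difference of Dcn was 0.69 (SE 0.15) and passed with an edgeR adjusted p of 0.0078, when 3.11% of genes were called. With limma-voom and sample weights it was 0.77 (adjusted p = 0.0015), with 9.98% of genes called. Leaving out the sham 5xFAD-Dp16 mouse 4, with little Col1a1, took Col1a1 to 0.60 (edgeR adjusted p = 0.030), and leaving out mouse 1 of that group, with 24.1 CPM, took it to 0.30 (edgeR adjusted p = 0.38).

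By role, all 5 fibroblast members had a positive mean difference in duplication carriers, from 0.10 to 0.47, and all 5 mural members a negative one, from -0.15 to -0.005. The median was 0.27 for the fibroblast members, -0.12 for the pericyte members and -0.14 for the smooth muscle members, beside 0.004 over all tested genes. The 95% interval excluded 0 for 3 of the 10. The genes were read in the same libraries and some varied together, such as Col1a1 and Col1a2 (r = 0.75), so their signs are not independent.

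Averaged in the same way, carriers of the amyloid transgenes had higher mean type I collagen, Igf2 and Pdgfrb levels than mice without them, and none passed the test. The mean log2 difference was 0.43 for Col1a2 (SE 0.16, edgeR adjusted p = 0.16), 0.39 for Igf2 (SE 0.18, edgeR adjusted p = 0.23), 0.37 for Col1a1 (SE 0.16, edgeR adjusted p = 0.19) and 0.19 for Pdgfrb (SE 0.08, edgeR adjusted p = 0.18). Each had an unadjusted p under 0.05, as did 20.2% of all genes. None was called, against 0.431% of tested genes. Without the sham 5xFAD-Dp16 mouse 1, Col1a1 was at 0.18 (SE 0.14). Tagln was at -0.28 (SE 0.15) and Rgs5 at -0.12 (SE 0.06). The interaction of the lesions, which asks whether the duplication acts differently with and without the transgenes, lay between -0.43 for Tagln and 0.51 for Col1a1. It called no member and 0.00567% of tested genes, with an unadjusted p under 0.05 for 0 of 10 members and 4.25% of genes in edgeR.

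**Figure D3:**
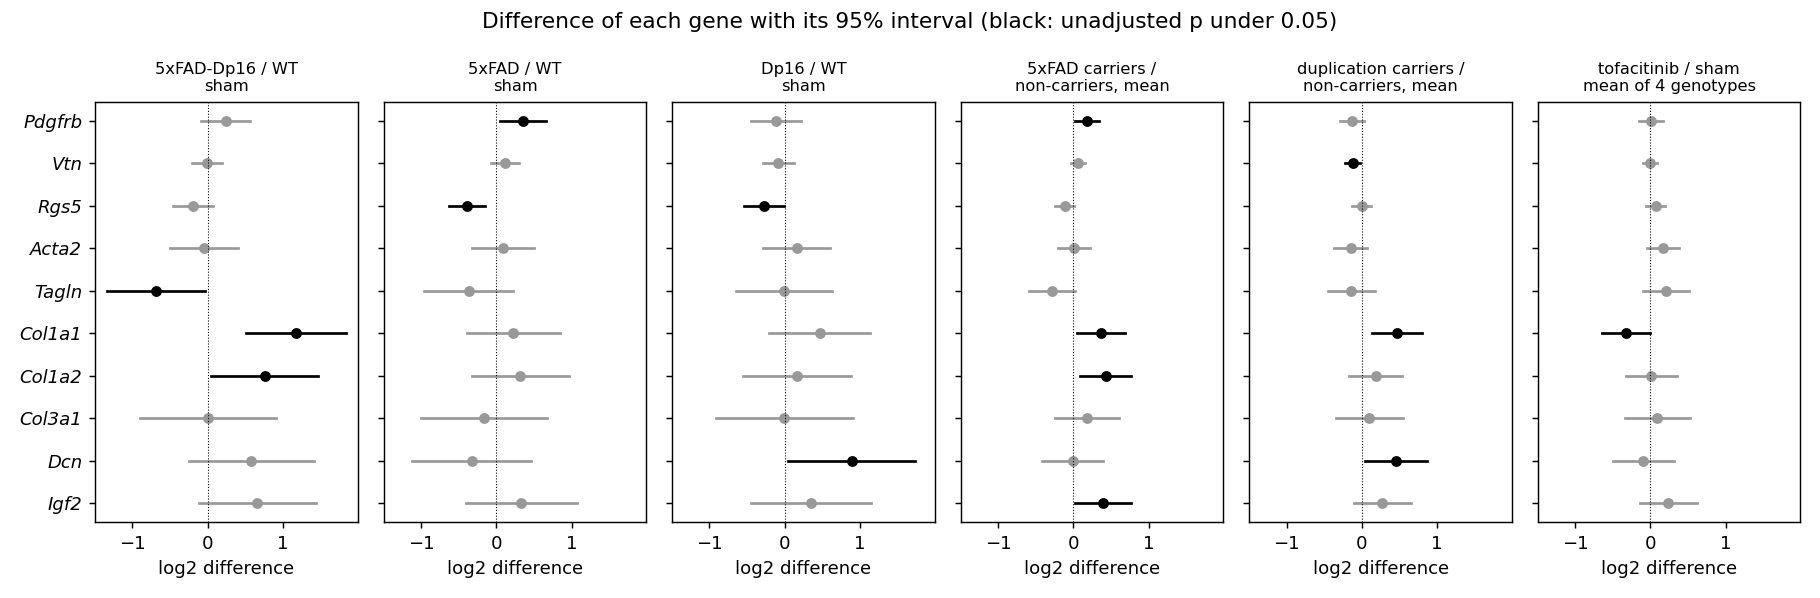
Log2 difference of each gene (point) with its 95% interval (line) in 6 comparisons of the edgeR fit, with the group above the slash on top; black marks an unadjusted p under 0.05. Type I collagen and Dcn lie right of 0 in 5xFAD-Dp16 and Dp16 mice with wide intervals, such as 0.51 to 1.83 for Col1a1 in sham 5xFAD-Dp16 against WT mice. The intervals of the pericyte genes are narrow.

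No member passed the test for tofacitinib. Its mean log2 difference over the 4 genotypes, each weighted alike, ran from -0.33 for Col1a1 to 0.24 for Igf2, and no gene in the data was called by edgeR (0% of tested genes). The unadjusted p was under 0.05 for 1 of 10 members, Col1a1 (-0.33, SE 0.16, edgeR adjusted p = 0.94), and for 585 genes in all, 3.32%. DESeq2 called 1 gene and limma-voom 0, none of them a member. Without the sham 5xFAD-Dp16 mouse with 24.1 CPM the Col1a1 mean was -0.14 (SE 0.14). The intervals of this mean were -0.15 to 0.16 for Pdgfrb, -0.10 to 0.09 for Vtn and -0.05 to 0.20 for Rgs5. For Dcn and Col3a1 they ran from -0.50 to 0.31 and from -0.34 to 0.52. Differences of opposite sign offset each other in the mean, so its intervals do not bound the drug difference within a genotype. Within genotypes the Pdgfrb difference was -0.18 in 5xFAD mice (interval -0.48 to 0.12) and 0.21 in WT mice (interval -0.07 to 0.50).

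Within genotypes, edgeR called 0% of tested genes and no member in each of 4 comparisons with the drug. In Dp16 mice Dcn read 10.3, 14.2, 13.9, 10.1 and 12.7 CPM on tofacitinib, against 21.0, 33.99 and 11.4 CPM in sham mice. The treated values were close together and overlapped with the lowest sham mouse. The log2 difference was -0.83 (SE 0.40, edgeR adjusted p = 1.00), with an unadjusted p under 0.05 for 1 of 10 members and 2.02% of genes. Without the sham mouse with 33.99 CPM it was -0.41. In 5xFAD mice Dcn read 9.80, 37.6, 9.10, 7.89 and 9.63 CPM on tofacitinib, against 9.58, 5.28, 6.95 and 14.5 CPM in sham mice. A single treated mouse made the log2 difference of 0.67 (SE 0.39), which was 0.005 (SE 0.29) without it. The same mouse held the highest Acta2 (34.7 CPM), Tagln (24.6 CPM), Col3a1 (6.88 CPM) and Igf2 (7.83 CPM) values of the series and a choroid plexus sum of 1534 CPM. Its Pdgfrb (21.3 CPM) and Rgs5 (208 CPM) values were inside the range of its group. In that genotype, 14.7% of genes had an unadjusted p under 0.05, with 0 of 10 members. In 5xFAD-Dp16 mice Col1a1 read 7.67, 8.04, 9.35 and 7.37 CPM on tofacitinib, against 24.1, 9.74 and 5.36 CPM in sham mice, with a log2 difference of -0.64 (SE 0.33) that was 0.12 (SE 0.32) without the sham mouse with 24.1 CPM. In WT mice the differences ran from -0.25 for Col3a1 to 0.28 for Acta2, with an unadjusted p under 0.05 for 0 of 10 members and 7.24% of genes.

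No member passed the test between the sexes. The log2 difference of females minus males, over all groups, ran from -0.07 for Vtn to 0.27 for Igf2, and no member was called, against 0.0624% of tested genes.

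Across mice the type I collagen genes and Igf2 varied together, as did Pdgfrb and Vtn in part, while Rgs5 ran against both other pericyte genes. The Pearson r of log2 CPM over 34 libraries was 0.75 between Col1a1 and Col1a2, 0.63 between Col1a2 and Igf2 and 0.56 between Col1a1 and Igf2. After the group and sex terms were removed these were 0.79, 0.51 and 0.56. Col3a1 had 0.23 with either type I chain, but 0.52 with Dcn, or 0.37 without the tofacitinib 5xFAD mouse 2. Acta2 and Tagln had 0.51, which was 0.33 without the tofacitinib 5xFAD mouse 2. Within the pericyte genes, Pdgfrb had 0.46 with Vtn and -0.45 with Rgs5, and Vtn had -0.23 with Rgs5. Rgs5 was closer to Tagln, at 0.51, than to either pericyte partner. Libraries share depth, dissection and the axis described above, so these values are descriptions.

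**Figure D4:**
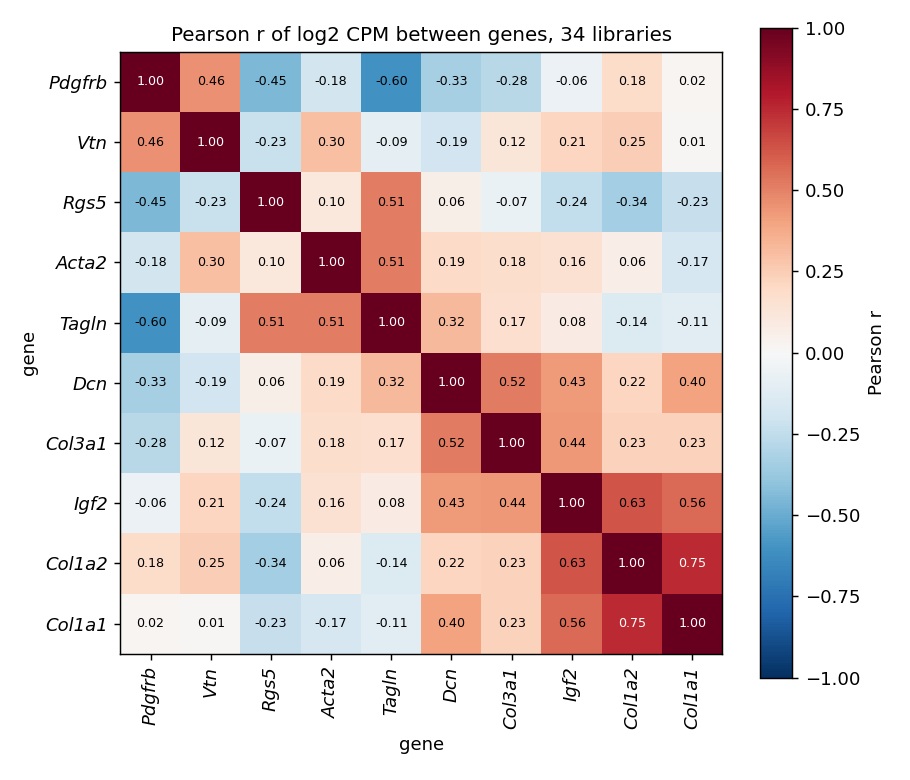
Pearson r of log2 CPM between the 10 genes over 34 libraries, with red for positive and blue for negative values. Col1a1, Col1a2 and Igf2 form the strongest block (0.56 to 0.75), and Pdgfrb has negative values with Rgs5 (-0.45) and Tagln (-0.60).

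The summed level of 20 further fibroblast genes, none of them a member, had an r of 0.77 with Col1a2, 0.71 with Igf2, 0.55 with Col1a1, 0.53 with Col3a1 and 0.50 with Dcn. Without the tofacitinib 5xFAD mouse 2 it had 0.42 with Col3a1 and 0.40 with Dcn. With each mural member the r of this sum over 34 libraries was between -0.17 and 0.24. The sum of 10 further pericyte genes had an r of 0.73 with Pdgfrb and 0.50 with Vtn, but -0.50 with Rgs5. That of 11 further smooth muscle genes had 0.54 with Tagln but 0.06 with Acta2. Without the tofacitinib 5xFAD mouse 2 these were 0.70 and 0.20. The sum of 5 oligodendrocyte genes had 0.64 with Rgs5 and 0.67 with Tagln, and 0.75 and 0.55 without that mouse. Border macrophage markers had their highest r, 0.69, with Igf2. Choroid plexus markers had theirs, 0.56, with Tagln, which was 0.45 without the tofacitinib 5xFAD mouse 2. Likeness was then ranked over the 17622 tested genes that are not members. Those most like Col1a2 were the meningeal fibroblast genes Islr (r = 0.73), Fmod (0.71) and Gjb2 (0.69), which encodes connexin 26. Those most like Igf2 were Fmod (0.75), Aldh1a2 (0.73), a retinoic acid enzyme of the meninges, and Serping1 (0.72), the complement inhibitor. Outside the members, where its partner chain Col1a2 had 0.75, Col1a1 was most like Cd74 (0.69), the invariant chain of antigen presentation, and the macrophage genes Folr2 (0.62) and Mgl2 (0.60), both at 0 in at least 1 library.

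The neighbours of Dcn were not fibroblast genes. They were Cpne7 (r = 0.83), Calb2 (0.77), which encodes the neuronal calcium-binding protein calretinin, and Krt2 (0.74). Without the tofacitinib 5xFAD mouse 2 these values were 0.77, 0.69 and 0.73. Those most like Pdgfrb were Mta1 (0.83), Prpf6 (0.83) and Mfn2 (0.82), broadly expressed genes of chromatin, splicing and mitochondria. Tagln was most like Fundc1, Rnd2 and M6pr (0.88 each), and Rgs5 most like Aktip (0.86), Tpm4 (0.86) and Svip (0.84). Vtn was most like Clu (0.73), which encodes the secreted chaperone clusterin, Papss1 (0.73) and Pgm1 (0.72). Acta2 was most like Smim1 (0.72), Fam131c (0.69) and Serpine2 (0.68), and Col3a1 most like Serping1 (0.72), Tekt5 (0.69) and Ahi1 (0.68).

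None of the matrix and vessel genes listed around the members was called between sham 5xFAD and WT mice. Of 12 basement membrane genes, which vessels and mural cells share, 12 had a positive log2 difference in sham 5xFAD against WT mice, with a median of 0.37 beside 0.01 over all tested genes, and none was called. Col4a1 was at 0.27 and Col4a2, its partner chain, at 0.57 (SE 0.13, edgeR adjusted p = 0.063). The same list was positive for 12 of 12 genes in sham 5xFAD-Dp16 against WT mice (median 0.44), a comparison that shares the WT mice. The sum of that list had an r of 0.67 with Pdgfrb and -0.75 with Tagln. In both comparisons log2 differences were larger for longer genes, with a Spearman rho of 0.397 and 0.326 across all tested genes. The part of gene length in the signs of the lists given here was not tested. Of 10 further pericyte genes 6 were positive in sham 5xFAD mice, with 0.55 for Notch3 (SE 0.17, edgeR adjusted p = 0.072) and -0.34 for Kcnj8 (edgeR adjusted p = 0.27), and none was called. Of the 11 further smooth muscle genes tested 3 were positive, among them Myh11 at 0.27, and Myl9 and Tpm2 were at -0.15 and -0.27. Of 20 further fibroblast genes 14 were positive (median 0.27), among them Lum at 0.46 and Fmod at 0.47.

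The signals that feed these cells were not called either. In sham 5xFAD against WT mice, Pdgfb, the endothelial ligand of the Pdgfrb receptor, was at 0.05, also the median of the 5 ligand and receptor genes listed for its family. Of 10 transforming growth factor beta genes 9 were positive (median 0.32), with 0.45 for Tgfb1 (edgeR adjusted p = 0.067). The 6 vitronectin receptor genes had a median of 0.10, with Itgav at 0.21 and Itgb5 at 0.32 (edgeR adjusted p = 0.10). The 4 genes of serum response factor and its partners had a median of 0.24, with Srf at 0.17. Of 10 insulin-like growth factor genes 5 were positive, with Igf1 at 0.29 and the Igf2 receptor gene Igf2r at 0.29. Of 12 collagen processing genes 8 were positive, with Serpinh1, the collagen chaperone gene, at -0.28. Choroid plexus genes were below 0 for 9 of 9, with a median of -1.43 and Ttr at -3.69 (edgeR adjusted p = 0.25): their sum was 9.42 to 12.9 CPM in sham 5xFAD mice and 13.7 to 230 CPM in sham WT mice.

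Most genes of these lists that passed the test did so in carriers of the duplication. That was also the comparison in which edgeR called the most genes of all, 374 or 2.12%. Averaged as above, the fibroblast collagen gene Col5a1 rose (0.55, SE 0.15, edgeR adjusted p = 0.036), and Mcam, an adhesion molecule of mural and endothelial cells, fell (-0.32, SE 0.08, edgeR adjusted p = 0.024). Of the endothelial list, Vwf, the gene of von Willebrand factor, rose (0.57, SE 0.12, edgeR adjusted p = 0.0044) and Cdh5, that of vascular endothelial cadherin, fell (-0.27, SE 0.07, edgeR adjusted p = 0.047). Igfbp2, which encodes a binding protein for insulin-like growth factors, rose (0.33, SE 0.09, edgeR adjusted p = 0.039), and the microglial gene P2ry12 fell (-0.21, SE 0.06, edgeR adjusted p = 0.038). These were 1 of 20 fibroblast, 1 of 10 pericyte, 2 of 10 endothelial, 1 of 10 insulin-like growth factor and 1 of 5 microglial genes, beside 2.12% of all tested genes. The smooth muscle, basement membrane, collagen processing, transforming growth factor beta and remaining lists had 0 called. All 6 passed again without both libraries that stood apart, in an unplanned fit that called 3.74% of genes in duplication carriers. In sham 5xFAD-Dp16 against WT mice Vwf rose (1.06, SE 0.23, edgeR adjusted p = 0.026), where 0.363% of tested genes were called. It did not pass without those libraries (0.98, edgeR adjusted p = 0.14). In carriers of the amyloid transgenes 1 listed gene passed, the microglial receptor gene Csf1r, which rose (0.31, SE 0.07, edgeR adjusted p = 0.038). In that comparison 0.431% of tested genes were called.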

How the data were processed

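Poly-A RNA from cortex was made into strand-specific libraries and sequenced in pairs of 150 bases, per the labels' protocols. The count per gene was deposited by the authors without normalization, and the RPKM values were deposited beside it. RPKM was checked to equal counts per length and per total, with a largest relative deviation of 9.1e-15. The submitters' processing notes name bcl2fastq, FastQC 0.11.5, HISAT2 2.1.0, SAMtools 1.5, HTSeq 0.6.1 and the build GRCm38. The strand setting of the counting is not given in the sources used here.

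Counts were scaled by TMM and filtered with filterByExpr over 8 groups, which kept 17632 of 55385 genes. One edgeR 4.0.16 quasi-likelihood fit (robust, R 4.3.3) held 34 libraries, 8 group terms and a term for sex. It gave 17 comparisons and 3 interactions. The interactions were added after seeing the data. P-values had Benjamini-Hochberg adjustment over all tested genes within each. The standard error is the log2 difference divided by the root of F. The procedure was also run on simulated counts, drawn independently for each gene and library. These lacked the differences shared by many genes in the real libraries, so that run cannot show how the procedure handles them. Library totals were 16029841 to 21388650 counts, and no libraries of a group agreed within counting noise (smallest chi-square per degree of freedom 4.685). Alternatives were DESeq2 1.42.0, limma 3.58.1 (voom with sample weights), other filters and scaling, no sex term, a replicate block and each library left out. The fit without both libraries that stood apart was not planned.

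Text names all 10 members, the genes of the other lists that passed, and the 3 genes most correlated with each member. It also names some genes of those lists that did not pass. They were a selection and not always the first in list order, so their values need not be typical of their lists. Members and lists were chosen with earlier results of these data known. Sequences are from RefSeq (GRCm38.p6) and overlaps from GENCODE M21, which is not the release named for the deposited counts.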

Additional observations from a re-analysis of the deposited data

Results flagged for a closer look

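In 7 of 60 checks of a member in a group of 4 or more mice, 1 mouse lay far from the others of its group. The rule flags about 1 in 20 checks of independent, normally distributed values. Here each flagged mouse was the highest of its group and some flags shared a library, so that rate is no yardstick for the 7. Dcn was at 37.64 CPM and Acta2 at 34.7 CPM in the tofacitinib 5xFAD mouse 2, where the next highest mice of the group had 9.803 and 20.68 CPM. Its choroid plexus sum was the highest of the series, and the part of that tissue in these values was not tested. Col1a2 (12.38 CPM) and Col3a1 (3.976 CPM) were both highest in the sham 5xFAD mouse 4. Col1a2 was at 12.28 CPM in the sham WT mouse 5 and Col3a1 at 4.285 CPM in the sham WT mouse 3. Rgs5 was at 237.2 CPM in the tofacitinib WT mouse 1. The sham 5xFAD-Dp16 mouse with the most Col1a1 was in a group of 3, too small for this check.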

How the results depend on the processing

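The count of members called, 0 in each comparison, moved under some settings. Without a filter on low counts it was 1 in sham Dp16 against WT (Dcn), 1 in sham 5xFAD against WT (Rgs5), 4 in sham 5xFAD-Dp16 against WT (Tagln, Col1a1, Col1a2 and Dcn), 2 against 5xFAD (Col1a1 and Dcn), 1 each for tofacitinib in Dp16 and in 5xFAD (Dcn), 2 in duplication carriers (Col1a1 and Dcn) and 3 in transgene carriers (Tagln, Col1a1 and Col1a2). In the same order, those fits called 158 genes in the first and then 5.57%, 2.73%, 0.453%, 0.0968%, 2%, 2.1% and 4.24% of all genes. With DESeq2 it was 1 in sham 5xFAD (Rgs5) and 1 in sham 5xFAD-Dp16 (Col1a1) against WT. With limma-voom it was 1 in sham 5xFAD against WT (Rgs5), 1 in sham 5xFAD-Dp16 against 5xFAD (Dcn) and 1 in duplication carriers (Dcn). The same 1 was called without both libraries that stood apart. Leaving out each library gave 0 to 1 for these comparisons to WT and for duplication carriers. The causes were not tested.

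The mean log2 differences of tofacitinib nearest 0 changed sign under some settings, and none passed under any. Pdgfrb was -0.0003336 without the low-count filter and Vtn 0.003873 with limma-voom. Without both libraries that stood apart, Col1a2 was -0.03714 and Col3a1 -0.07204. With each library left out, the range was -0.02191 to 0.03407 for Pdgfrb, -0.02049 to 0.0173 for Vtn, -0.07514 to 0.1176 for Col1a2, -0.07533 to 0.2189 for Col3a1 and -0.2766 to 0.03868 for Dcn. Replicate numbers did not pair the mice: same-numbered mice had a median correlation of deviations of 0.015 over 42 pairs (-0.392 to 0.125), and 9 matched their own number best. With the replicate block, 0 members were called in each comparison, the mean drug difference was -0.02031 for Pdgfrb and 0.01938 for Vtn, and 209 genes were called in duplication carriers (374 without) and 17 in transgene carriers (76 without).

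Counts over all genes depended strongly on the tool. In sham 5xFAD against WT mice edgeR called 1 gene, DESeq2 1587 and limma-voom 2806, and 1 to 2008 with each library left out. For tofacitinib in 5xFAD mice these were 0, 0 and 3038, and 0 to 411. In duplication carriers they were 374, 530 and 1760, and 262 to 545. In transgene carriers they were 76, 587 and 589, and 14 to 322. Col3a1 rested on the fewest counts, 19 in its lowest library.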
